A study of Arabidopsis thaliana with 26 samples.

Results

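Developing leaves of Arabidopsis thaliana were compared between 96 h and 48 h of a treatment that the series title calls elevated CO2 with ambient light. The comparison rests on 8 of the 26 ATH1 arrays in the series, chosen by the time in their labels: 4 arrays at 96 h and 4 at 48 h. Both groups were Col-0 wild-type plants on compost at 20 °C, 50% humidity and 10 h of light per day, and both took leaf insertions 19 to 21 at growth stages 1.19 to 1.21. The same temperature, humidity and light were given for the other arrays used, which came from mature leaves at 24 h (n = 2) and from developing leaves at 2, 4, 12 and 24 h (n = 4 each). No leaf insertion is given for the mature leaves in the sources used here. The sources used here leave unstated whether the sampled leaves or others were under elevated CO2, and untreated plants were not analysed here. Hours of treatment and 2 further days of leaf age therefore cannot be told apart. The labels number the replicates without naming separate plants, so p-values cover the variation among these arrays only, part of which may be technical.

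A rosette leaf begins as a dividing, importing organ. Cell division stops first, then expansion, and the leaf becomes a mature exporter that later carries out defence and recycling of nitrogen before it dies. Auxin, made largely in young tissue, and its conjugating enzymes act during growth, whereas salicylic acid, a defence hormone, and its glycosylating enzymes tend to act in older leaves. A leaf sample is a mix of cell types, and in such a sample fewer cells of a type and less RNA per cell cannot be told apart.

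Signals are the deposited linear intensities. A change is a difference of mean log2(signal + 16), 96 h minus 48 h, with its SE, so changes of dim genes are understated. A probe set was called when limma's adjusted p was under 0.05. Of 16154 probe sets tested, 571 were called, or 3.53%: 357 were higher at 96 h (2.21%) and 214 were lower (1.32%). With each array centred on its median the split was 465 higher and 90 lower, so the number of lower calls depends on scaling. The median log2 change of all tested probe sets was -0.043, and +0.021 after that centring. At least 2-fold changes were found in 74 of the higher probe sets (0.458% of those tested) and in 2 of the lower ones (0.0124%). Among the called probe sets, 306 had no gene in the annotation and 10 had several, so the genes named below come from the remaining 255.

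The risen and fallen sets were also followed over all arrays, as a description, since 96 h and 48 h chose their members. The median of the 357 higher probe sets lay 0.86, 0.52, 0.50 and 0.93 log2 units above the 48 h mean on the 96 h arrays of replicates 1 to 4, against -0.07 to 0.04 on the 48 h arrays. The 96 h replicates 1 and 4 thus moved furthest, and replicates 2 and 3 moved less. Replicate 4 held the highest 96 h signal for 211 of these probe sets and replicate 1 for 132. The 214 lower probe sets had medians of -0.57, -0.32, -0.39 and -0.52 on the 96 h arrays and between -0.06 and 0.06 on the 48 h arrays. Replicates 1 and 4 again lay furthest from 48 h. The arrays of 2 to 24 h ranged from -0.50 to -0.03 for the higher set, below the 96 h arrays, and mature leaves at 24 h read 1.57 and 1.63.

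**Figure D1:**
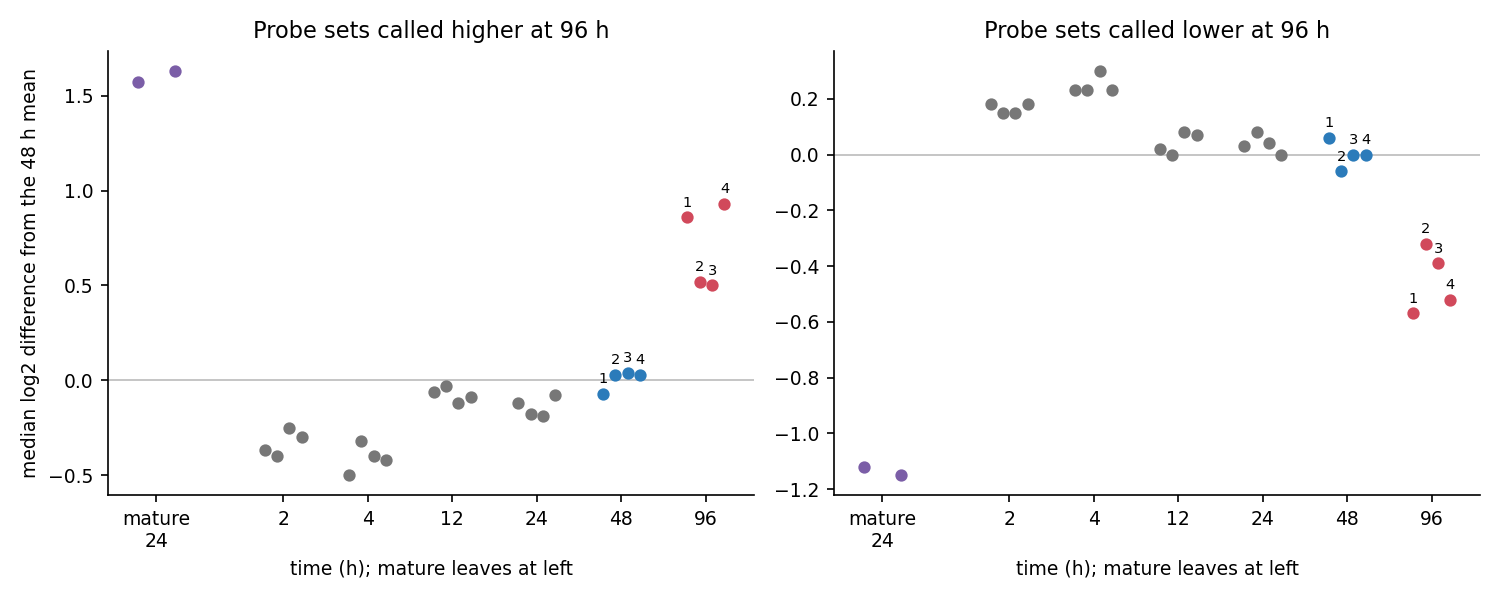
Each point is 1 array; the vertical axis is the median, over the probe sets called higher (left) or lower (right) at 96 h, of the log2(signal + 16) difference from the mean of the 4 arrays at 48 h, and the horizontal axis is time, with mature leaves at the left. The numbers beside the 48 h and 96 h points are replicates. The 4 arrays at 96 h lie between 0.50 and 0.93 for the higher set and between -0.57 and -0.32 for the lower set, and mature leaves lie beyond them in both.

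Leaving out single arrays moved the number of calls. It was 197 without 96 h replicate 1, 201 without 96 h replicate 4, 317 without 48 h replicate 1 and 861 without 96 h replicate 2. Of the 571 probe sets, 153 stayed called in all 8 such fits, 125 of them higher and 28 lower. Quality controls set some of these arrays apart. The control for 25S ribosomal RNA had signals of 1536, 87.1, 434 and 77.8 on the 96 h arrays and 1571, 65.0, 38.9 and 40.8 on the 48 h arrays, against a median of 67.7 over the series. The cre spike-in probe set read 3967 on 48 h replicate 1 and between 915 and 1905 on the other 7 arrays. The ratio of the 3′ to the 5′ actin probe set, a measure of RNA integrity, was 7.21, 3.55, 2.95 and 3.72 at 96 h and 3.24, 3.80, 6.49 and 2.68 at 48 h. Without both arrays of highest 25S signal, 135 probe sets were called, 98 higher and 37 lower. Other array pairs were not left out for comparison. Of the genes described below as called without any single array, Fes1A (adjusted p = 0.092), APL3 (0.067), LHCB4.3 (0.063), CYP71B24 (0.06), AT1G29270 (0.064), AT5G33370 (0.068) and AT2G31730 (0.1) were not called without this pair. The part of RNA quality in the calls was not tested.

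RING1, with a role in defence, rose most of all called genes with a symbol, and UGT76B1 was close to it. RING1 (AT5G10380), a RING-type ubiquitin ligase linked to programmed cell death, read 368, 342, 239 and 476 at 96 h against 119.8, 117, 85.3 and 104 at 48 h. Every 96 h array exceeded every 48 h array by a wide margin. The change was 1.57 ± 0.19 (adjusted p = 4.6e-05), a fold of 2.97. UGT76B1 (AT3G11340), which glycosylates salicylic acid and related defence metabolites, read 56.4, 22.2, 21.7 and 75.7 at 96 h against 5.16, 0.686, 3.31 and 5.24 at 48 h. Its 48 h signals all lay under 24.3, the lowest 40th percentile of any array, so the gene was near the dim end before it rose by 1.51 ± 0.23 (adjusted p = 0.00025). GLR2.7 (AT2G29120), a glutamate receptor-like channel, read 60.2, 45.5, 40.8 and 80.9 against 7.66, 18.0, 20.5 and 20.1 at 48 h, a change of 1.15 ± 0.17 (adjusted p = 0.00019). GLR2.7 was the 1 call among 7 tested glutamate receptors, against 2.21% higher among all tested probe sets. The median change of these receptors was -0.09. The calls of RING1, UGT76B1 and GLR2.7 held when any single array was left out.

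Other defence genes rose less firmly. CHI (AT2G43570), a putative chitinase, read 173, 123, 47.2 and 319 at 96 h against 38.7, 37.4, 44.9 and 30.2 at 48 h, with replicate 3 barely above the 48 h range. Its change of 1.52 ± 0.42 (adjusted p = 0.042) lost its call without any of the 4 arrays at 48 h or without 96 h replicate 1 or 4, with adjusted p up to 0.2. SGT1A (AT4G23570), a co-chaperone of immune receptors, averaged 310.3 ± 82.2 at 96 h and 196 ± 37.3 at 48 h (SD, n = 4 each). Its change of 0.61 ± 0.15 (adjusted p = 0.019) lost its call without 48 h replicate 1 (adjusted p = 0.094), 96 h replicate 1 (0.087) or 96 h replicate 4 (0.12).

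Of 32 tested genes on the list of defence and immunity, 3 rose (RING1, UGT76B1 and SGT1A), against 2.21% higher among all tested probe sets, and 0 fell, with a median change of 0.07. This list was drawn up from gene names and leaves out the chitinase. BIK1, a kinase that acts with immune receptors, changed by 0.06 and was not called. The immune receptor EFR (means of 4.19 at 96 h and 1.86 at 48 h) and the lipase-like protein SAG101 (21.4 and 21.3) were dim at both times and were not called. WRKY53, a transcription factor of senescence and defence, changed by 0.37 (adjusted p = 0.18), and 0 of 4 WRKY genes were called in limma (2 had an unadjusted p under 0.05). Of 7 jasmonate genes 0 were called (2 with an unadjusted p under 0.05), the largest change being 0.51 for the transcription factor MYC4 (adjusted p = 0.086).

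**Figure D2:**
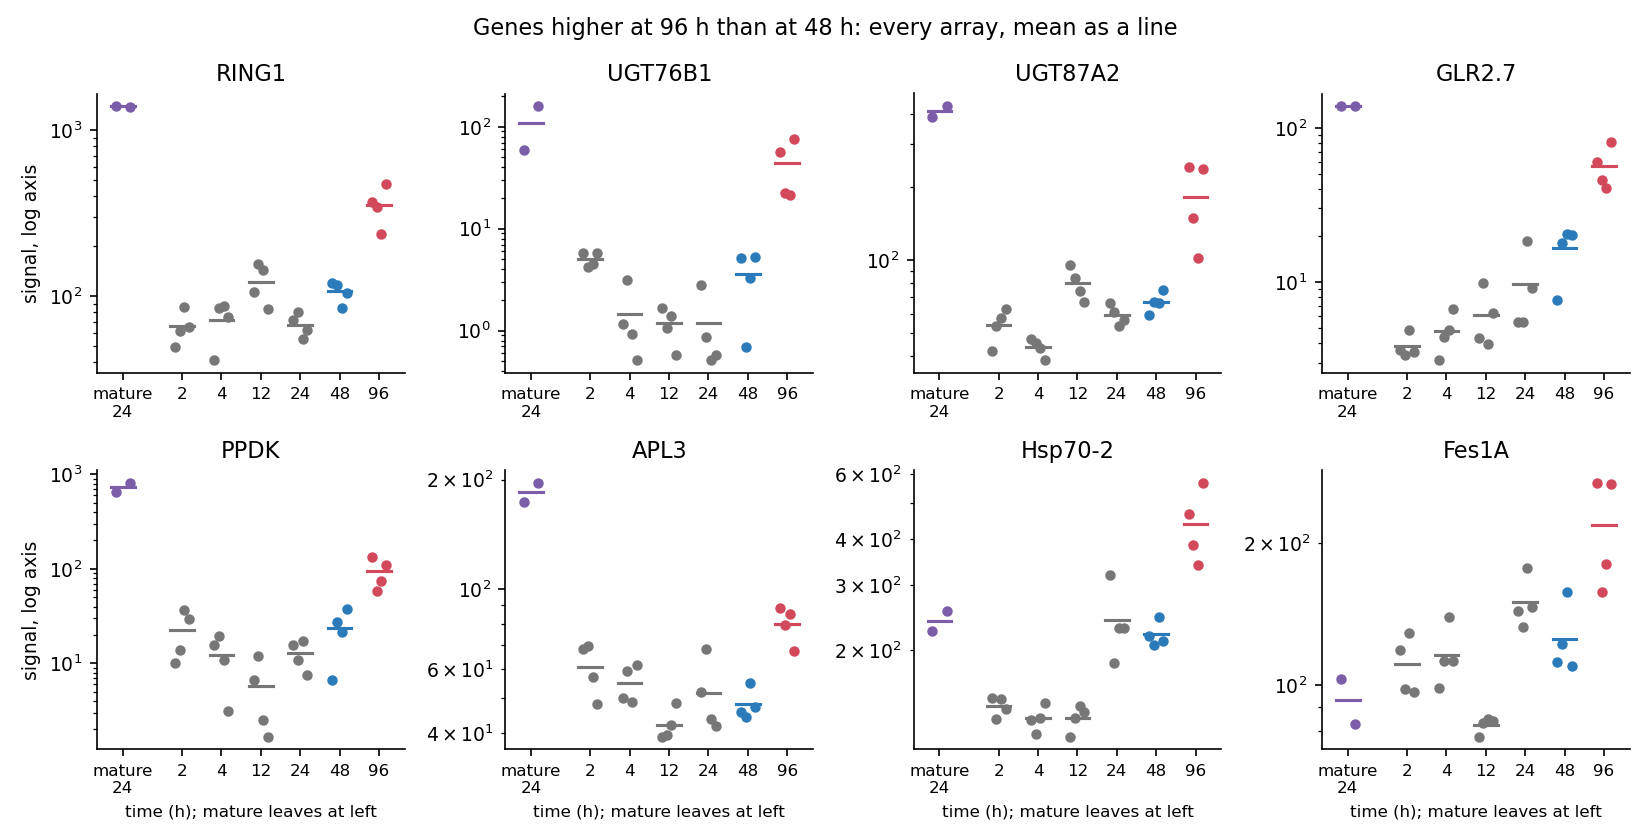
Signal on a log axis for 8 genes called higher at 96 h, with 1 point per array and a line at each group mean, against time in hours, with mature leaves at the left. RING1, UGT76B1, UGT87A2, GLR2.7, PPDK and APL3 were brighter still in mature leaves, whereas Hsp70-2 and Fes1A were not.

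Of the 15 genes with the highest changes among those that passed the naming rule, 11 were known to the annotation only by locus code. That share has no weight of its own, since 1230 of the 8984 tested probe sets with 1 gene had a symbol. AT1G13470 read 124, 60.5, 73.9 and 202 at 96 h against 3.84, 14.8, 31.0 and 17.9 at 48 h, the largest change among them at 1.94 ± 0.28 (adjusted p = 0.00019). All 4 arrays at 96 h exceeded every 48 h array, but the naming rule required this of all 15 genes, so it adds no support. AT1G76960 read 85.5, 57.7, 42.4 and 75.5 against 2.80, 3.81, 18.1 and 11.1 at 48 h (1.72 ± 0.22; adjusted p = 7.1e-05). AT3G60420 read 241, 186, 117 and 367 against 30.7, 59.3, 37.8 and 57.6 at 48 h (1.89 ± 0.35; adjusted p = 0.0021). All 3 kept their calls in every fit that left out 1 array. The remaining 8 were AT1G57630, AT3G28540, AT5G24210, AT2G18690, AT5G52760, AT2G29500, AT1G10340 and AT4G32870, with changes between 1.23 and 1.91. The last 3 of these lost their calls without 96 h replicate 1 or 4, and AT4G32870 also without 48 h replicate 1, whose signal of 4.48 lay far under the other 48 h arrays (adjusted p up to 0.11, 0.056 and 0.18).

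UDP-glycosyltransferases attach sugars to hormones, flavonoids and defence compounds. Of 27 tested genes 6 rose and 0 fell, against 2.21% higher among all tested probe sets, and the family's median change was 0.07. UGT87A2 (AT2G30140) read 242, 149, 102 and 236 at 96 h against 59.1, 67.1, 66.2 and 75.4 at 48 h, without overlap. Its change was 1.19 ± 0.16 (adjusted p = 0.00015), and it kept its call in all 8 fits without 1 array, as did UGT76B1. The other members called were UGT78D2 (0.61 ± 0.17; adjusted p = 0.042), which glycosylates flavonoids, UGT73D1 (0.54), UGT84A3 (0.49) and UGT71C4 (0.42). Each of these 4 lost its call without at least 4 different arrays, 96 h replicates 1 and 4 among them (adjusted p up to 0.19, 0.2, 0.17 and 0.15), and leaving out 1 array gave between 2 and 7 calls in the family. The signals of UGT73D1 overlapped between the groups and were at most 17.0. All lay under 24.3, the lowest 40th percentile of any array, so this gene was tested only through arrays outside this comparison. Near-identical family members may share signal on short-oligonucleotide arrays, so single members are uncertain.

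Cytochrome P450 enzymes oxidise many small molecules, and 2 of 12 tested genes rose, against 2.21% higher among all tested probe sets, while 0 fell. CYP71B24 (AT3G26230) read 37.5, 53.0, 34.7 and 49.6 at 96 h against 16.2, 23.6, 29.0 and 20.1 at 48 h, without overlap (0.64 ± 0.14; adjusted p = 0.0078), and stayed called without any single array. CYP71B23 (AT3G26210) averaged 55.7 ± 26.8 at 96 h and 23.5 ± 6.09 at 48 h (0.81 ± 0.20; adjusted p = 0.019), and lost its call without 48 h replicate 3 or 4 or 96 h replicate 1 or 4 (adjusted p up to 0.12). Glutathione S-transferases, another detoxifying family, gave 0 calls among 7 tested genes (2 with an unadjusted p under 0.05), with a median change of 0.22.

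Of the tested genes of leaf senescence and autophagy, only PPDK was called. PPDK (AT4G15530), pyruvate orthophosphate dikinase, which supplies carbon skeletons for nitrogen export from ageing leaves, read 134, 58.7, 73.7 and 109 at 96 h against 6.72, 27.6, 21.8 and 38 at 48 h. Its lowest 96 h array exceeded the highest at 48 h, and the change was 1.49 ± 0.25 (adjusted p = 0.0011), kept without any single array. Against 2.21% higher among all tested probe sets, it was the 1 call among 5 tested genes of leaf senescence. The others were YLS5 (0.28; adjusted p = 0.3), WRKY53 (0.37), SAG101 (0.01) and SAG29, a sugar transporter (-0.34; adjusted p = 0.23). Of 10 autophagy genes 0 were called (2 with an unadjusted p under 0.05), with a median change of -0.09. MT1C (AT1G07610), a metallothionein, read 332, 111, 135 and 216 at 96 h against 49.4, 66.1, 102 and 83.3 at 48 h (1.16 ± 0.29; adjusted p = 0.023), but lost its call without 48 h replicate 1 or 2 or 96 h replicate 1 or 4 (adjusted p up to 0.14).

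In starch metabolism, APL3 (AT4G39210), a large subunit of the enzyme that makes ADP-glucose for starch, read 88.7, 79.3, 85.2 and 67.5 at 96 h against 45.9, 44.5, 54.9 and 47.1 at 48 h. The groups did not overlap, and the change of 0.58 ± 0.12 (adjusted p = 0.0046) held without any single array. Against 2.21% higher among all tested probe sets, it was the 1 call of 6 tested starch genes, whose median change was -0.01. Of 14 genes of sucrose synthesis and sugar transport 0 were called (4 with an unadjusted p under 0.05), the largest change being 0.56 for ATSPS4F, a sucrose phosphate synthase (adjusted p = 0.097). BCAT4 (AT3G19710), which starts the synthesis of methionine-derived glucosinolates, rose by 0.71 ± 0.17 (adjusted p = 0.02), with means of 145 ± 26.2 at 96 h and 82.9 ± 18.2 at 48 h. It lost its call without 48 h replicate 1 or 4 or 96 h replicate 1 or 4 (adjusted p up to 0.11).

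Of 12 tested genes of heat shock and co-chaperones 3 rose (Hsp70-2, Fes1A and SGT1A) and 1 fell (Fes1B). The shares among all tested probe sets were 2.21% higher and 1.32% lower, and the median change of these 12 genes was -0.03. This group was put together after its values had been seen, so its count carries no weight. Hsp70-2 (AT5G02490), a cytosolic chaperone that folds proteins, read 469, 386, 339.7 and 568 at 96 h against 219, 206, 246 and 212 at 48 h. Its groups did not overlap, and it rose by 0.92 ± 0.13 (adjusted p = 0.00015). Fes1A (AT3G09350), a partner that protects HSP70 during heat, read 268, 158, 181 and 266 against 112, 122, 157 and 109.8 at 48 h (0.71 ± 0.14; adjusted p = 0.0041). Both kept their calls when any single array was left out. Fes1B (AT3G53800), of the same family, read 23.0, 46.7, 42.0 and 32.1 at 96 h against 66.6, 59.8, 61.1 and 73.0 at 48 h. It fell by 0.66 on the log2 scale (SE 0.14; adjusted p = 0.0077), a call lost without 96 h replicate 1 (adjusted p = 0.058). The chaperone partners Hop1, Hop2 and Hop3 changed by -0.01, -0.04 and 0.21 and were not called. Fes1C (-0.32; adjusted p = 0.06), HSA32 (-0.24), ATHSP22.0 (-0.12), ATJ1 (-0.11) and BOB1 (0.04) were not called either.

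The Aurora kinases drive chromosome segregation and the placing of division planes, and AUR1, AUR2 and AUR3 all fell at 96 h. AUR2 (AT2G25880) read 31.1, 41.5, 43.6 and 37.6 at 96 h against 73.1, 73.3, 82.4 and 67.6 at 48 h, with a wide gap between the groups. The change was -0.73 ± 0.10 (adjusted p = 0.00015), a fold of 0.603, and was called without any single array. AUR1 (AT4G32830) read 92.4, 114, 132 and 101 at 96 h against 139, 164, 156 and 173 at 48 h, without overlap (-0.47 ± 0.13; adjusted p = 0.034). AUR3 (AT2G45490) read 28.7, 43.9, 37.1 and 32.2 against 58.9, 47.2, 58.3 and 52.1 at 48 h, also without overlap (-0.45 ± 0.11; adjusted p = 0.019). AUR1 lost its call without 48 h replicate 2, 3 or 4 or 96 h replicate 1 or 4 (adjusted p up to 0.16), and with arrays centred on their median (adjusted p = 0.071; 0.0056 to 0.16 over all alternatives). AUR3 lost its call without 48 h replicate 1 or 3 or 96 h replicate 1 or 4 (adjusted p up to 0.11).

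All 7 tested genes of mitosis and cell cycle control had negative changes, with a median of -0.44 against -0.043 over all tested probe sets, and 3 of them, the Aurora kinases, were called, against 1.32% lower among all tested probe sets. On a longer list of mitosis and cytokinesis, drawn up from gene names, 3 of 26 genes were called, again the Aurora kinases, and 3 had positive changes, among them KEU (0.27) and TUB6 (0.22), with a median of -0.19. The spindle checkpoint genes BUB3.1 (-0.44; adjusted p = 0.055), BUBR1 (-0.38) and BUB3.2 (-0.34) and the cell cycle inhibitor SIM (-0.24) were not called. All 7 tested genes of DNA replication and chromatin assembly were likewise negative, with a median of -0.35, and 1 was called. A longer list of DNA replication, repair and chromatin had 2 calls among 36 genes, against 1.32% lower among all tested probe sets. These calls were 3xHMG-box1 and the histone HTB1, and leaving out 1 array gave between 0 and 4 calls. This longer list had 5 positive changes and a median of -0.16, or -0.10 with arrays centred on their median. The gene called on both lists was 3xHMG-box1 (AT4G11080), a protein that binds mitotic chromosomes, which averaged 42.3 ± 9.59 at 96 h and 73.9 ± 16.7 at 48 h (SD, n = 4 each). Its change of -0.62 ± 0.15 (adjusted p = 0.016) came with overlapping groups and was lost without 48 h replicate 3 or 96 h replicate 1 or 4 (adjusted p up to 0.082). PRL, a subunit of the replication helicase, changed by -0.45 (adjusted p = 0.055), and POLA3, a primase subunit of DNA polymerase alpha, by -0.35 (adjusted p = 0.075).

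Histone H2B gene HTB1 (AT1G07790) read 209.6, 234, 221 and 194 at 96 h against 268, 305, 316 and 267 at 48 h, without overlap. The change was -0.40 ± 0.09 (adjusted p = 0.0096), and it was lost without 96 h replicate 4 (adjusted p = 0.058). It was the 1 call of 7 tested histone genes, against 1.32% lower among all tested probe sets. The histone genes had a median change of -0.28, and only HTB11 had a positive value (0.07).

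**Figure D3:**
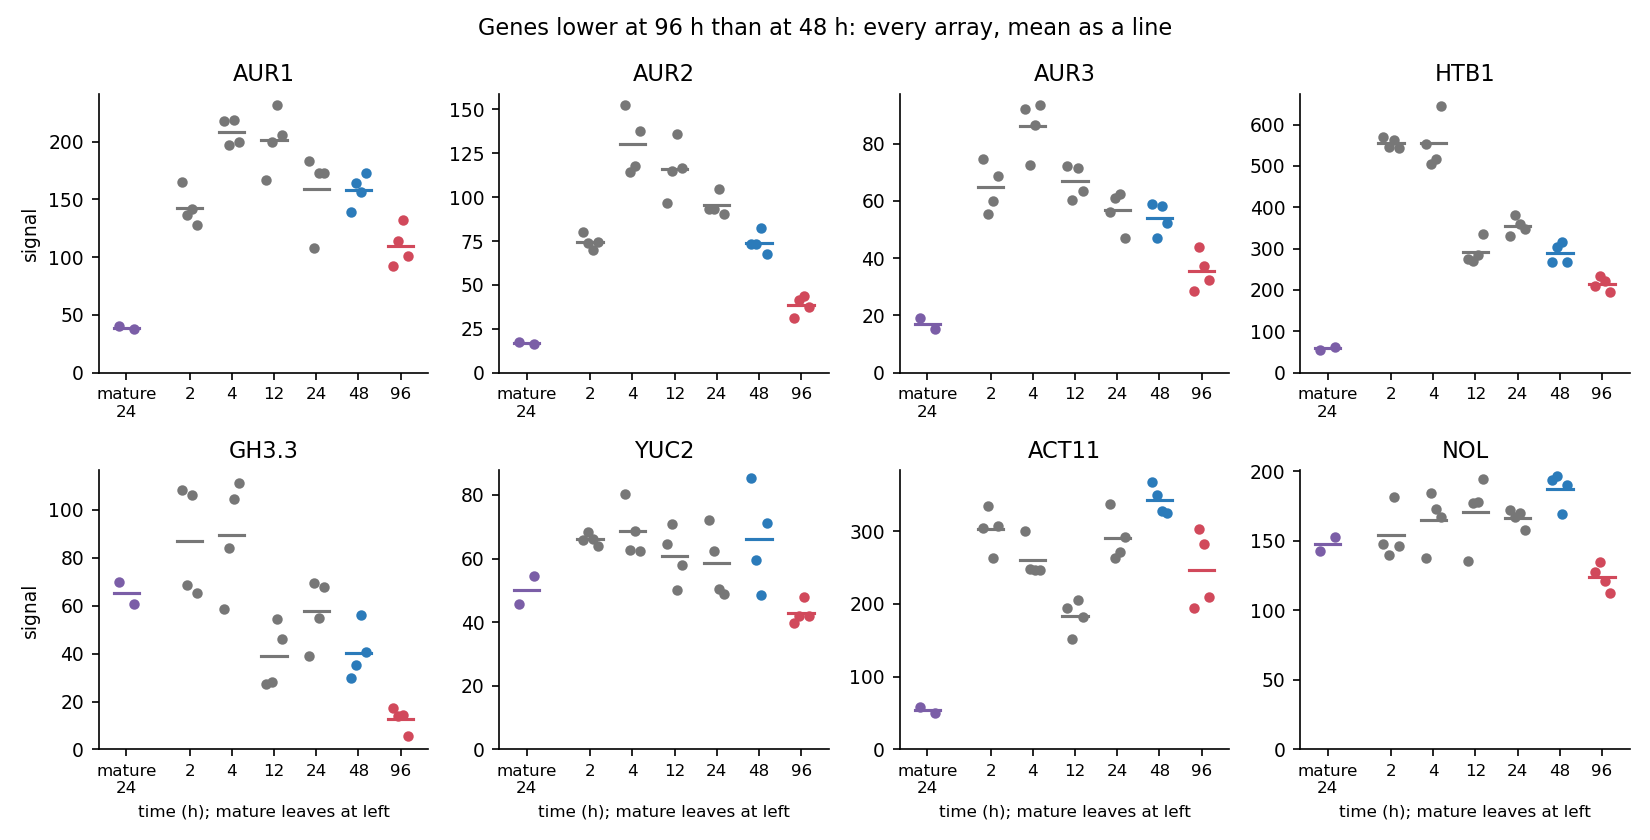
Signal on a linear axis from 0 for 8 genes called lower at 96 h, with 1 point per array and a line at each group mean, against time in hours, with mature leaves at the left. The Aurora kinases and HTB1 were dimmer again in mature leaves, whereas GH3.3, YUC2 and NOL were not below their 96 h means there.

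Of 9 tested auxin genes 3 fell, against 1.32% lower among all tested probe sets, and 0 rose, with a median change of -0.42. GH3.3 (AT2G23170), which conjugates auxin to amino acids and is itself induced by auxin, read 17.4, 14.2, 14.2 and 5.45 at 96 h against 29.7, 35.3, 56.1 and 40.5 at 48 h. The groups did not overlap, and the change of -0.97 ± 0.20 (adjusted p = 0.0052), a fold of 0.511, held without any single array. All its 96 h signals lay in the dim range. YUC2 (AT4G13260), an enzyme of auxin synthesis, read 39.9, 41.8, 47.8 and 41.9 at 96 h against 85.4, 59.5, 48.6 and 71.3 at 48 h (-0.46 ± 0.12; adjusted p = 0.033). Its 48 h replicate 3 came within 1 unit of the highest 96 h array. GH3.9 averaged 26.7 ± 5.41 at 96 h and 42.8 ± 8.12 at 48 h (-0.46 ± 0.13; adjusted p = 0.04), with overlap. YUC2 lost its call without 48 h replicate 1 or 4 or 96 h replicate 1 or 4, and GH3.9 without 48 h replicate 1, 2 or 4 or 96 h replicate 1, 3 or 4 (adjusted p up to 0.14 and 0.15), and GH3.9 also with arrays centred on their median (adjusted p = 0.053; 0.011 to 0.34 over all alternatives). IAA29, an auxin response repressor, changed by -0.60 (adjusted p = 0.061).

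Among 8 tested tubulins and actins 2 fell, against 1.32% lower among all tested probe sets, and 0 rose. ACT11 (AT3G12110), an actin, averaged 247 ± 53.5 at 96 h and 343 ± 19.9 at 48 h (-0.47 ± 0.12; adjusted p = 0.025). TUB7 (AT2G29550), a beta-tubulin, averaged 284 ± 24.1 and 356 ± 15 at the same times (-0.31 ± 0.09; adjusted p = 0.044). ACT11 lost its call without 48 h replicate 1 or 2 or 96 h replicate 1 or 4 (adjusted p up to 0.15). TUB7 lost its call without any of 7 arrays, 96 h replicate 2 being the exception (adjusted p up to 0.19), and with arrays centred on their median (adjusted p = 0.12; 0.021 to 0.35 over all alternatives).

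Among 26 genes of expansins and wall loosening, 2 rose and 1 fell, against 2.21% higher and 1.32% lower among all tested probe sets. The median change on this list was -0.06. GH9C2 (AT1G64390), an endoglucanase, read 565, 603, 614 and 656 at 96 h against 424 to 460.0 at 48 h. The groups were well apart, and the change of 0.45 ± 0.09 (adjusted p = 0.0066) held without any single array. GH9B8, of the same family, rose by 0.50 ± 0.14 (adjusted p = 0.047), a call lost without any of 7 arrays, 96 h replicate 2 again excepted (adjusted p up to 0.24). PME61 (AT3G59010), a pectin methylesterase, averaged 209.8 ± 29.3 at 96 h and 291 ± 14 at 48 h (-0.45 ± 0.12; adjusted p = 0.03), and lost its call without 48 h replicate 2, 3 or 4 or 96 h replicate 1 or 4 (adjusted p up to 0.15), and with arrays centred on their median (adjusted p = 0.085; 0.0035 to 0.15 over all alternatives). Of 15 expansins and expansin-like genes, whose proteins loosen growing walls, 0 were called, and of 26 genes of cellulose and wall synthesis 0 were called, with a median of -0.06. In each of these groups 3 genes had an unadjusted p under 0.05.

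The 10 lowest changes under the naming rule held 7 genes with a locus code only. AT1G29270 read 38.9, 46.2, 41.1 and 31.9 at 96 h against 82.9, 59.4, 94.7 and 79.8 at 48 h, the lowest change among them (-0.77 ± 0.16; adjusted p = 0.0064). AT5G33370 read 226, 399.5, 332 and 249 against 567, 465, 485 and 470.5 at 48 h (-0.72 ± 0.13; adjusted p = 0.0025). ZW9 (AT1G58270) read 204, 211, 215 and 199 at 96 h against 363, 342, 306 and 333 at 48 h (-0.65 ± 0.12; adjusted p = 0.0021). These 3 genes and AT2G31730 (-0.64) kept their calls without any single array. AT3G02120 (-0.63), AT5G60150 (-0.62), AT3G12870 (-0.62) and AT1G30820 (-0.58) lost them without 96 h replicate 1 or 4 and 1 of the 48 h arrays (adjusted p up to 0.091, 0.13, 0.085 and 0.12).

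Calls among genes of photosynthesis are set here against 3.53% called in either direction among all tested probe sets. At that share, 0 calls on a short list carry little weight. LHCB4.3 (AT2G40100), an antenna protein of photosystem II, read 779, 681, 781 and 703 at 96 h against 522, 469.5, 519 and 502 at 48 h. The groups were far apart for a bright gene, and the change of 0.53 ± 0.11 (adjusted p = 0.0074) held without any single array. Its relatives LHCB4.1 and LHCB4.2 changed by 0.08 each and were not called. Of 11 nuclear genes of the photosystems, ATP synthase and the NDH complex 0 were called, with a median of 0.09, and of 69 plastid-encoded genes 0 were called, with a median of 0.10. In each of these lists 1 gene had an unadjusted p under 0.05. Calvin cycle genes RCA (0.01), PRK (0.10) and SBPASE (0.14) were not called, nor was any of 8 genes of tetrapyrrole synthesis, and 0 of these 11 had an unadjusted p under 0.05. NOL (AT5G04900), a chlorophyll b reductase of chlorophyll breakdown, read 127, 134, 121 and 112 at 96 h against 194, 196, 169 and 189.8 at 48 h, without overlap (-0.54 ± 0.10; adjusted p = 0.0022), and held without any single array.

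**Figure D4:**
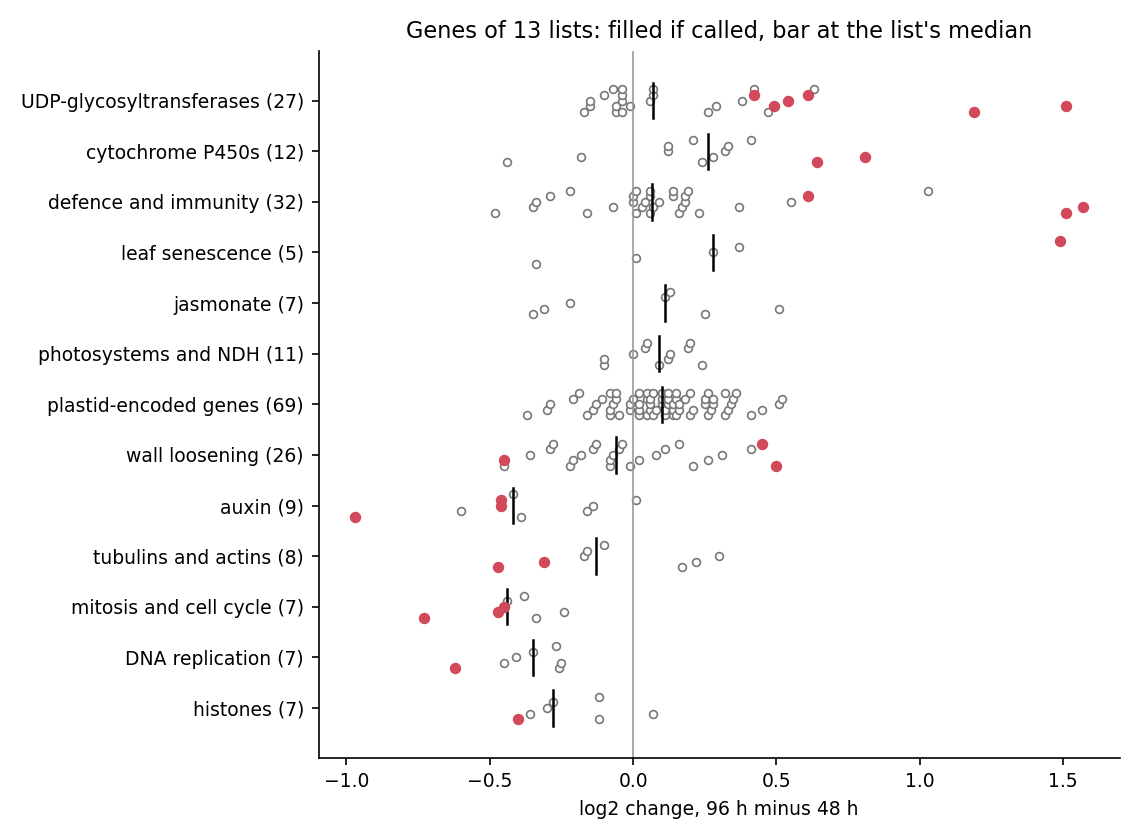
Log2 change (96 h minus 48 h) of every tested gene on 13 lists, with the number of genes in brackets, filled points for called genes and a bar at each list's median; height within a row only separates points. The lists of mitosis and DNA replication lie wholly below 0, and the called UDP-glycosyltransferases lie above it.

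Clock genes did not differ detectably between these times, which are whole days apart. GI, of the evening clock, changed by 0.06 (95% interval -0.20 to 0.31), CCL by -0.01 (-0.29 to 0.28) and COR27 by -0.02 (-0.27 to 0.23). The same 3 genes changed by -1.41, 2.46 and 3.2 at 12 h relative to 2 h. Of the markers of other cell types, 1 was called, against 3.53% called in either direction among all tested probe sets. The stomatal lineage genes SPCH (-0.02), STOMAGEN (-0.10) and FMA (-0.19) were not called, although each was lower in mature leaves than in developing leaves at 24 h. Of the trichome genes, TRY, an inhibitor of trichome fate, rose by 0.47 ± 0.13 (adjusted p = 0.046), a call lost without any array at 48 h or without 96 h replicate 1 or 3 (adjusted p up to 0.24), and SIM was not called. The phloem gene SWEET11 (0.36), the xylem gene GUT2 (-0.26), the meristem gene LAS (-0.33), the root genes PYK10, EXPA7 and EXPA18 (-0.22 to -0.08) and the flower gene AGL18 were not called. The markers that could be tested were few. The LHCB4 and Calvin cycle genes were taken here as markers of leaf mesophyll, and no cell type was identified from them.

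A further comparison shares no array with the one at 96 h and 48 h: mature leaves at 24 h (n = 2) against developing leaves at 24 h (n = 4). It shows how far the changes at 96 h run in the direction of mature leaves. A probe set could enter the test through the 2 mature arrays alone, which favours signals that are high in mature leaves. How many did so was not counted, and the shares were not recomputed under a stricter filter. This limit holds for all counts set against mature leaves. Of the 357 probe sets higher at 96 h, 328 (91.9%) were also called higher in mature leaves and 6 were called lower, against 24.1% and 30.7% of all tested probe sets. Their median change in mature leaves was 1.72. Of the 214 lower probe sets, 179 (83.6%) were called lower in mature leaves and 2 higher, with a median of -1.18. Of the 74 that rose at least 2-fold at 96 h, 71 were higher in mature leaves and 0 lower. Among the 153 called without any single array the shares were 95.2% of 125 and 85.7% of 28. Over the 9 fits without 1 array or without both arrays of high 25S signal, an alternative chosen after seeing the data, these shares lay between 87.2% and 95.3% for higher and between 65.5% and 91.8% for lower probe sets.

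**Figure D5:**
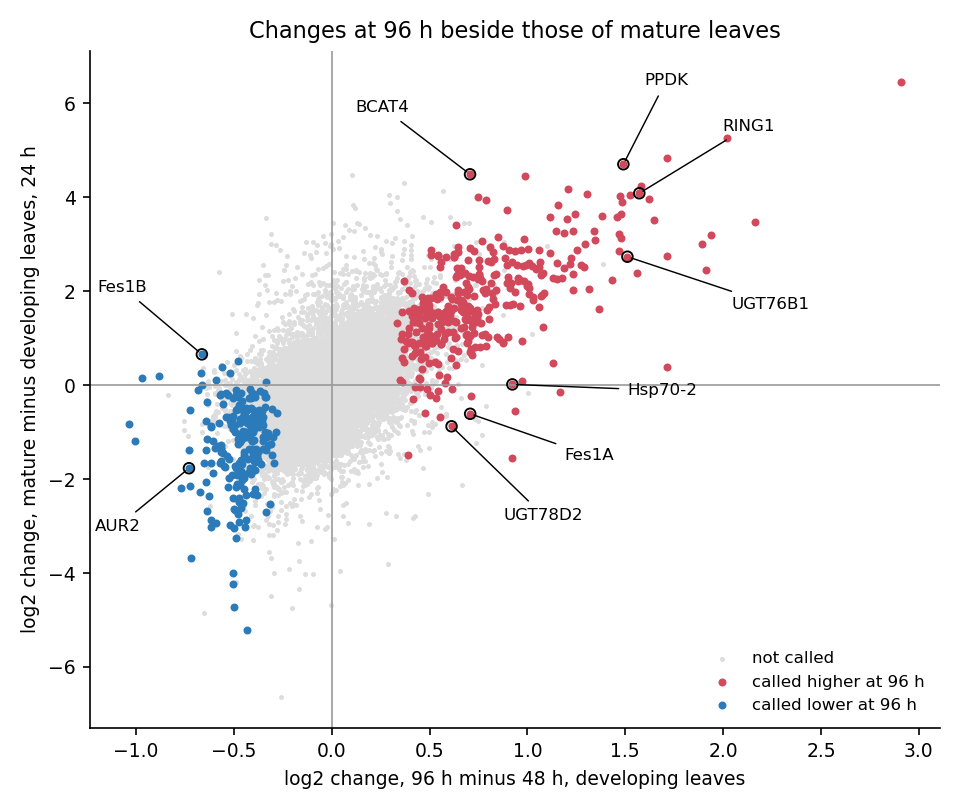
Log2 change of developing leaves, 96 h minus 48 h, on the horizontal axis, and of mature minus developing leaves at 24 h on the vertical axis, with 1 point per tested probe set and called ones coloured. Of the 357 higher points 340 lie above the horizontal line, and of the 214 lower points 204 lie below it; Fes1A, Fes1B and UGT78D2 are on the opposite side.

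Developing leaves at 96 h had not reached mature levels for most of these probe sets. The mature mean exceeded the 96 h mean for 318 of the 357, and lay below it for 183 of the 214. RING1 averaged 1393 in mature leaves at 24 h and 67.4 in developing leaves at 24 h, a log2 change of 4.09 ± 0.23. PPDK averaged 732 and 12.8 in these groups (4.71 ± 0.31), and AUR2 averaged 16.7 and 95.5 (-1.77 ± 0.12). Both lay further from 48 h in mature leaves than at 96 h.

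A few genes went the other way, and these were picked out after their values had been seen. UGT78D2 (-0.87 ± 0.21), Fes1A (-0.61 ± 0.17) and AT3G09440 (-0.59 ± 0.16), all higher at 96 h, were lower in mature leaves. Fes1B (0.66 ± 0.17) and AT5G47530 (0.52 ± 0.15), both lower at 96 h, were higher in mature leaves. The other 3 probe sets had no gene in the annotation. Hsp70-2 showed no detectable difference in mature leaves (0.02 ± 0.16), and neither did GH9C2 (0.16 ± 0.11), NOL (-0.16 ± 0.12) or GH3.3 (0.16 ± 0.24).

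Time of day was set beside the calls through 12 h and 2 h, which share no array with 96 h and 48 h either and differ in clock time as well as in hours of treatment. Of the 357 higher probe sets, 121 (33.9%) were higher at 12 h than at 2 h and 49 (13.7%) lower, against 15.1% and 13.5% of all tested probe sets. Of the 214 lower ones, 71 (33.2%) were lower at 12 h and 32 were higher. The remaining 187 and 111 were not called in this comparison. AT3G60420 was among the genes with a large difference, at 2.85 for 12 h minus 2 h, and PPDK had the opposite sign there (-0.79).

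The 24 h arrays are set beside the changes as a description, and the comparisons below share arrays with each other and with the main one. Both sets and the genes named were chosen by their difference between 96 h and 48 h. That choice by itself favours a larger step after 48 h than before it, so these values do not date the changes. Over the 357 higher probe sets the median change was 0.15 at 48 h relative to 24 h and 0.84 at 96 h relative to 24 h. Over the 214 lower ones it was -0.03 and -0.49. RING1 changed by 0.56 at 48 h and by 2.13 at 96 h, GLR2.7 by 0.35 and 1.5, AUR2 by -0.31 and -1.04, and GH3.3 by -0.38 and -1.35. The choice of both sets by 96 h and 48 h also favours an extreme at 96 h, so the following counts are a description only. Among the 6 times in developing leaves, 317 of the 357 peaked at 96 h, and 189 of the 214 had their minimum there. In the higher set, 38 of the remaining 40 peaked at 12 h.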

How the data were processed

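Per the submitters' processing notes the values were made with MAS5; no version is given in the sources used here. The deposited intensity values are linear signals with a trimmed mean of 100 on every array; no detection calls were used. Here they were transformed as log2(value + 16). Probe sets above the 40th percentile of their array on at least 2 of the 26 arrays were tested, 64 controls excluded. A model of 7 group means was fitted in limma 3.58.1 (R 4.3.3; lmFit, eBayes with trend), with Benjamini-Hochberg adjustment over 16154 probe sets; the script was tested on simulated data. With 4 arrays a group, a change had a median 95% half-width of 0.265 log2 units.

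Of all probe sets 13513 had 1 gene, 503 several and 8730 none in the platform annotation; 13436 matched the gene table of assembly TAIR10.1. A gene counted through its brightest probe set. Of 3679 genes on 85 lists, 592 had a tested probe set; 20 lists were added from gene names and 1 of these after values were seen. The members and lists were chosen with earlier results of these data known. Named by rule were the 15 highest and 10 lowest changes among genes with an adjusted p under 0.05, non-overlapping groups and a group mean above 43.6, the median of all values, then called list members. For these 15 and 10 genes, non-overlap was a condition of naming, so it lends their changes no further support. Lists are described by counts and medians. Promoter motifs were not analysed here, since no sequence table was used.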

Additional observations from a re-analysis of the deposited data

Results flagged for a closer look

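In 6 of the 148 groups of 4 arrays checked among the named genes, 1 array lay far from the other 3 (its gap to the nearest array, over the group's range on the log2 scale, was above Dixon's 95% critical value). About 1 group in 20 does so by chance. At 48 h, replicate 1 was the lowest for AT4G32870 (4.48, the others 63.0 to 77.3; gap ratio 0.890), for SGT1A (140.4, the others 209 to 222; 0.862) and for GLR2.7 (7.66, the others 18.0 to 20.5; 0.836). The same array was the highest for BSH (115, the others 101 to 102; 0.902). Replicate 4 at 48 h was the highest for NDB2 (110.0, the others 57.5 to 61.6; 0.898). At 96 h, replicate 1 was the highest for scpl48 (151, the others 86.8 to 95; 0.841).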

How the results depend on the processing

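The count of 571 probe sets (357 higher, 214 lower) ranged from 197 to 861 when 1 of the 8 arrays was left out (149 to 473 higher, 47 to 388 lower). It was 202 (168 and 34) with only the 8 arrays fitted, 975 (519 and 456) with array weights, and 135 (98 and 37) without both arrays of high 25S signal. Centring arrays on their medians left 90 lower. The other alternatives (pseudocounts of 1 and 64, other filters, quantile normalization, no trend, developing arrays only, replicate block) gave counts within 1.5 times. Fitting the 8 arrays alone uses fewer samples to estimate the spread; the cause of the other moves was not tested. With the replicate number as a block, fitted on the developing arrays, 674 were called (400 higher, 274 lower), against 531 on these arrays without it. Deviations of same-numbered arrays from their group means had correlations of -0.17 to -0.03. So few arrays cannot settle whether the numbers mark a shared batch or a pairing. Over 20 alternatives the 74 called genes that have values here kept direction in all, and lost their call in 354 of 1478 cases that gave a value. Under a pseudocount of 64 and quantile normalization the shares in mature leaves and at 12 h stayed within 1.5 times. Promoter motifs were not run.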

Other observations

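Some further genes had a symbol and a call, and are given here as values chosen after they were seen. TET3 and SBT1.3 belong to added lists, of tetraspanins (median change 0.01) and subtilases (0.10). Single calls on these lists stand against 2.21% higher and 1.32% lower among all tested probe sets. SAL2 (AT5G64000), a phosphatase related to SAL1, averaged 52.9 ± 25.6 at 96 h and 18.1 ± 5.43 at 48 h (0.95 ± 0.18; adjusted p = 0.0034) and kept its call without any single array. NDB2 (AT4G05020), an alternative NADH dehydrogenase of mitochondria, averaged 137 ± 34.5 at 96 h and 72.2 ± 25.2 at 48 h (0.81 ± 0.18; adjusted p = 0.0094), a call lost without 96 h replicate 1 or 4 (adjusted p up to 0.061). TET3 (AT3G45600), a tetraspanin of the plasma membrane, averaged 84.5 ± 15.8 at 96 h and 48.0 ± 5.84 at 48 h (0.64 ± 0.14; adjusted p = 0.0089), and was the 1 call of 8 tetraspanins (lost without 96 h replicate 1 or 4, adjusted p up to 0.056). SBT1.3 (AT5G51750), a subtilase, averaged 405 ± 45.2 at 96 h and 555 ± 52.9 at 48 h (-0.44 ± 0.10; adjusted p = 0.016), the 1 call of 8 subtilases, and lost it without 48 h replicate 1 or 96 h replicate 1 or 4 (adjusted p up to 0.09).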
